A study of Homo sapiens with 8 samples.

Results

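ISL1, ISL2, MNX1, LHX1, LHX5, PAX2, PAX8, EN1, GATA3 and POU4F1 are transcription factors that mark classes of young spinal cord neurons. These 10 genes were taken from a fixed list, whatever their level, out of 58217 genes with a matched transcript, and each was followed across 8 RNA-seq libraries. The cells were oligodendrocyte progenitor cells (OPCs), the dividing cells that give rise to the myelin-forming oligodendrocytes. They were derived from the established embryonic stem cell line H9 with retinoic acid, inhibitors of BMP and TGF-beta signalling and then a Smoothened agonist, which switches on sonic hedgehog signalling. After passaging in OPC medium, they were plated on dishes coated with 1 of 3 substrates and collected after 2 days. The Matrigel group (replicates 2 and 3) is the control, grown on a basement membrane extract. The VN group (replicates 1, 2 and 3) was grown on recombinant vitronectin, a cell adhesion protein of serum and extracellular matrix. The VNP2 group (replicates 1, 2 and 3) was grown on a designed peptide derived from vitronectin, made as a fusion with a mussel adhesive protein. All groups share the H9 line, the differentiation and the medium, and none received the SOX10 virus that the study used elsewhere to force maturation. Polyadenylated RNA of the whole culture was sequenced. Nothing in the labels says that the replicates came from separate cultures, so the p-values measure the spread between these samples, which may be technical.

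In the embryonic spinal cord, graded signals along the dorsoventral axis divide the progenitors into domains, and each domain produces neurons with its own combination of homeodomain and related factors. Motor neurons, which release acetylcholine, use ISL1, ISL2 and MNX1. LHX1 and LHX5 are LIM homeodomain factors of several interneuron classes, and PAX2 and PAX8 accompany them in inhibitory interneurons, of which the V1 class carries EN1. GATA3 marks the inhibitory V2b class, and POU4F1 (BRN3A) marks dorsal interneurons and sensory neurons. The progenitor domain that yields motor neurons later yields OPCs. None of these genes is exclusive to the spinal cord: ISL1 is also used by forebrain cholinergic neurons and by sensory neurons, EN1 at the midbrain-hindbrain boundary, PAX2 and PAX8 in the kidney and the ear, and GATA3 in the ear and in T cells.

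The sequence just before the transcription start is shown for the 4 members with a single RefSeq window (GRCh38.p14), since 3 of them, ISL1, PAX8 and POU4F1, differed between substrates. MNX1, PAX2 and GATA3 have several windows, and LHX1, LHX5 and EN1 were not matched. Each sequence runs 5′ to 3′ on the strand of its gene and stops before the first annotated exon of that gene. Capitals mark the CCAAT box, searched as CCAAT on both strands, and CAGCTG, an E-box that proneural factors can bind and that reads the same on both strands. ISL1 (chr5:51383198-51383390, plus strand), ISL2 (chr15:76336523-76336723, plus strand), PAX8 (chr2:113278951-113279171, minus strand) and POU4F1 (chr13:78603561-78603802, minus strand) read as follows.
ISL1: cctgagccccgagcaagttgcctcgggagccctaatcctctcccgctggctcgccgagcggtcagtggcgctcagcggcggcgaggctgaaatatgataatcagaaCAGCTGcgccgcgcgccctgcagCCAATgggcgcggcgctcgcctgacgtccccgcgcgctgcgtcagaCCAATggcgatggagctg
ISL2: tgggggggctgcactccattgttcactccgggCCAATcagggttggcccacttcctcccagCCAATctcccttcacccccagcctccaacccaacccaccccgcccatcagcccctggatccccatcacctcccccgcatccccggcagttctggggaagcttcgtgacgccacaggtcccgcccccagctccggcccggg
PAX8: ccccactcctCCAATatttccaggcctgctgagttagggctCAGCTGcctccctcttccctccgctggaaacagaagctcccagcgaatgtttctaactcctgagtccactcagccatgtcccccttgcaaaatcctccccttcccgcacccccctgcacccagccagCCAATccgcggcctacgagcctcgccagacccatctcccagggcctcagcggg
POU4F1: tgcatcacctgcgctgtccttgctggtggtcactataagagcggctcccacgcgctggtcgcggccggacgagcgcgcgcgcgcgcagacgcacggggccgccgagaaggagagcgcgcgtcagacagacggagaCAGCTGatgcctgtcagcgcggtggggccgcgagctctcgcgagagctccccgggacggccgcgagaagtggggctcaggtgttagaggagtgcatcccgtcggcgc
The ISL1 window holds CCAAT at 121 and 75 bases before the RefSeq start and CAGCTG at 144. That window also overlaps an exon of a neighbouring noncoding gene. ISL2 has CCAAT at 218 and 189 bases, PAX8 has CCAAT at 240 and 82 bases and CAGCTG at 209, and POU4F1 has CAGCTG at 115 bases. Over 250 bases before the start, CCAAT was found in 3 of these 4 promoters and in 32% of all 35116 promoters, and CAGCTG in 3 of the 4 and in 14.0% of all. TATAAA (10.7% of all promoters) and TAATTA, a core that homeodomains can bind (4.35%), matched none of the 4. The GC content over the 250 bases was 65.2% for ISL1, 68.0% for ISL2, 61.6% for PAX8 and 71.2% for POU4F1, against a median of 58.0% over all promoters. These matches describe the letters and do not show binding.

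The libraries held between 37997896 and 39429453 estimated counts. A total of 18201 genes passed the filter on low counts, and 8 of the 10 members were among them, all but MNX1 and PAX2. VN replicate 1 stood apart from its group: the median chi-square of gene counts, which sampling alone would put at 0.455, was 2.35 and 2.75 against VN replicates 2 and 3, compared with 0.713 to 1.19 for the replicate pairs of the other substrates and 0.784 between VN replicates 2 and 3. Counts of called genes that changed without that library are therefore also given without it. Leaving it out raised the calls over all genes from 2770 to 3911 on VN against Matrigel. The rise was from 3017 to 3653 on VNP2 against Matrigel and from 942 to 1979 on VNP2 against VN. List counts without that library stand against these higher totals.

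The regional and cell type labels were checked against their markers. OLIG1 and OLIG2, which the study names as essential for oligodendrocyte differentiation, had means of 60.6 and 49.6 TPM (Salmon abundance, a level per transcript length scaled to the library). SOX10, another OPC marker of the study, had 20 estimated counts over all 8 libraries. These levels alone do not settle the OPC label, since the same progenitor domain first yields motor neurons. By staining, the study found OLIG2, A2B5 and NG2 in part of the cells only. The 39 HOX genes, which are used from the hindbrain to the spinal cord, added up to 562 to 740 TPM per library, and 19 of them had a mean of at least 1 TPM, led by HOXB3 at 96.3 TPM. OTX2, a factor of the forebrain and midbrain, had a mean of 138 TPM. The cultures therefore held transcripts of both rostral and HOX-expressing neural tissue, and the 10 genes are named below by their spinal roles without assigning the cells that made them to the spinal cord. OTX2 is undercounted here, since its counts reached 0.64 of those in the deposited table.

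Per transcript length, LHX1 and ISL1 made up most of the RNA of the 10 genes. LHX1 had a mean of 13.9 TPM over the 8 libraries and ISL1 8.99 TPM, which put them at percentiles 52.2 and 44.7 of the genes tested. The other members followed far below, with PAX8 at 0.778 TPM, POU4F1 at 0.489, EN1 at 0.408, ISL2 at 0.363, LHX5 at 0.245, GATA3 at 0.214, MNX1 at 0.0559 and PAX2 at 0.0246 TPM. Summed over all transcripts, LHX1 lay above ISL1 in every library, with a ratio of TPM between 1.18 and 1.84. The main coding transcripts did not keep that order. On Matrigel LHX1-201 had 6.37 and 6.15 TPM, above 5.69 and 5.58 for ISL1-201. In every VN and VNP2 library ISL1-201 was higher, at 9.26 to 10.1 TPM against 7.73 to 9.81 for LHX1-201. From PAX8 down to GATA3 the ranges of neighbours in the order of mean TPM overlapped across libraries. LHX1 and ISL1 together held 86.3 to 92.8% of the summed TPM of the 10 genes. That sum was 17.9 to 18.9 TPM on Matrigel, 26.5 to 31.0 TPM for VN and 24.7 to 28.1 TPM for VNP2, so the Matrigel libraries lay below all others.

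**Figure D1:**
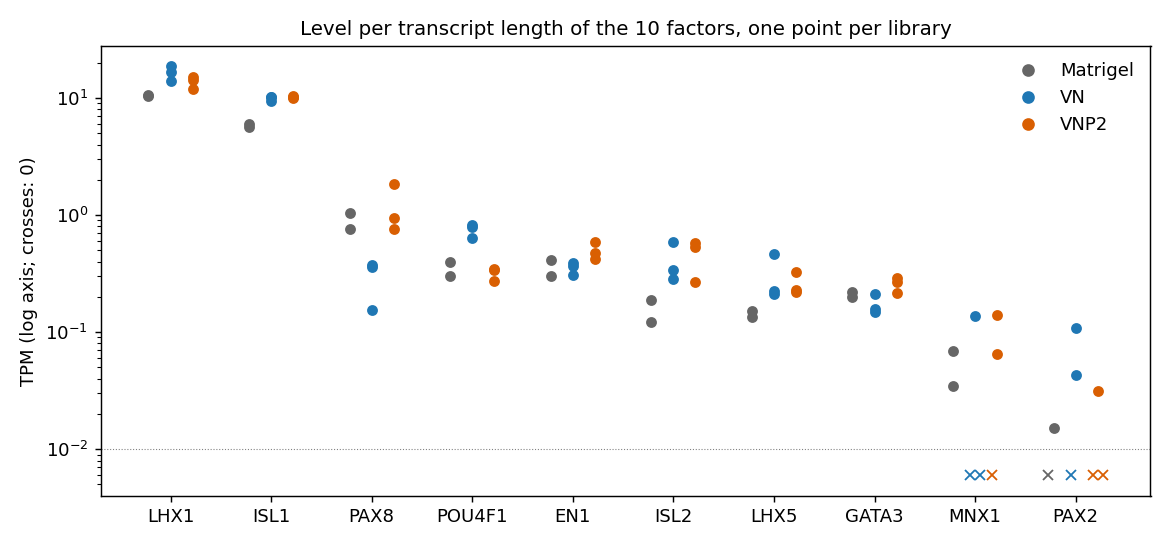
Level of each of the 10 factors in TPM (log axis), ordered by mean, with a point per library coloured by substrate and crosses for libraries at 0. LHX1 and ISL1 lie near 10 TPM, the other factors mostly below 1 TPM, and MNX1 and PAX2 near or at 0.

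The design asks whether the factors differed across the 3 substrates, between VN and Matrigel, between VNP2 and Matrigel, and between VNP2 and VN. All comparisons used 1 edgeR quasi-likelihood fit over the 8 libraries in which tests were two-sided and p-values were adjusted by the Benjamini-Hochberg method over all 18201 genes, and the threshold for a call was an adjusted p of 0.05. Across the 3 substrates, 4 of the 8 tested members were called (ISL1, LHX1, PAX8 and POU4F1), where 19.3% of all genes were. On VN against Matrigel, ISL1, LHX1 and POU4F1 were higher and PAX8 was lower, which is 4 of 8 beside 15.2% of all genes. On VNP2 against Matrigel, ISL1 alone was called, higher on VNP2, which is 1 of 8 beside 16.6% of all genes. Between VNP2 and VN, PAX8 was higher and POU4F1 lower on VNP2, which is 2 of 8 beside 5.18% of all genes. The comparisons with Matrigel share its 2 libraries, and the comparisons with VN share its 3. The median log2 fold change of the 8 tested members was 0.63 on VN and 0.36 on VNP2 against Matrigel and 0.12 on VNP2 against VN, whereas over all genes it was 0.01, 0.00 and 0.00. The plot of fold changes shows these values with their intervals. In bulk RNA, fewer cells of a type and less RNA per cell cannot be told apart, so none of these differences says which of them changed.

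**Figure D2:**
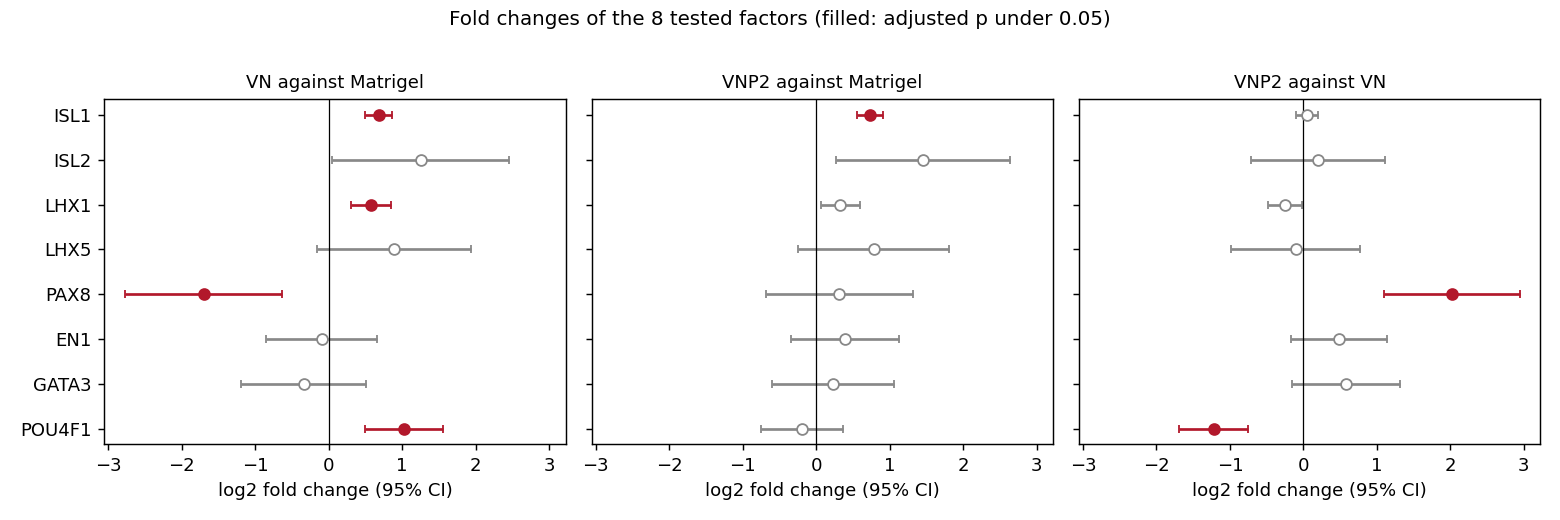
Log2 fold changes of the 8 tested factors with 95% confidence intervals in each pair of substrates, where filled red points have an adjusted p under 0.05 and open grey points do not. ISL1 lies to the right of 0 in both comparisons with Matrigel, POU4F1 rises on VN and is lower on VNP2 than on VN, and PAX8 shows the opposite order with the widest intervals of the called factors.

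The groups did not overlap for 7 of the 8 tested members on VN against Matrigel (44.4% of all genes), for 4 on VNP2 against Matrigel (48.1%) and for 4 on VNP2 against VN (23.5%). With 2 Matrigel libraries, separation of this kind is common among all genes and is given here only as a description. The plot of normalized counts by library shows each value.

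**Figure D3:**
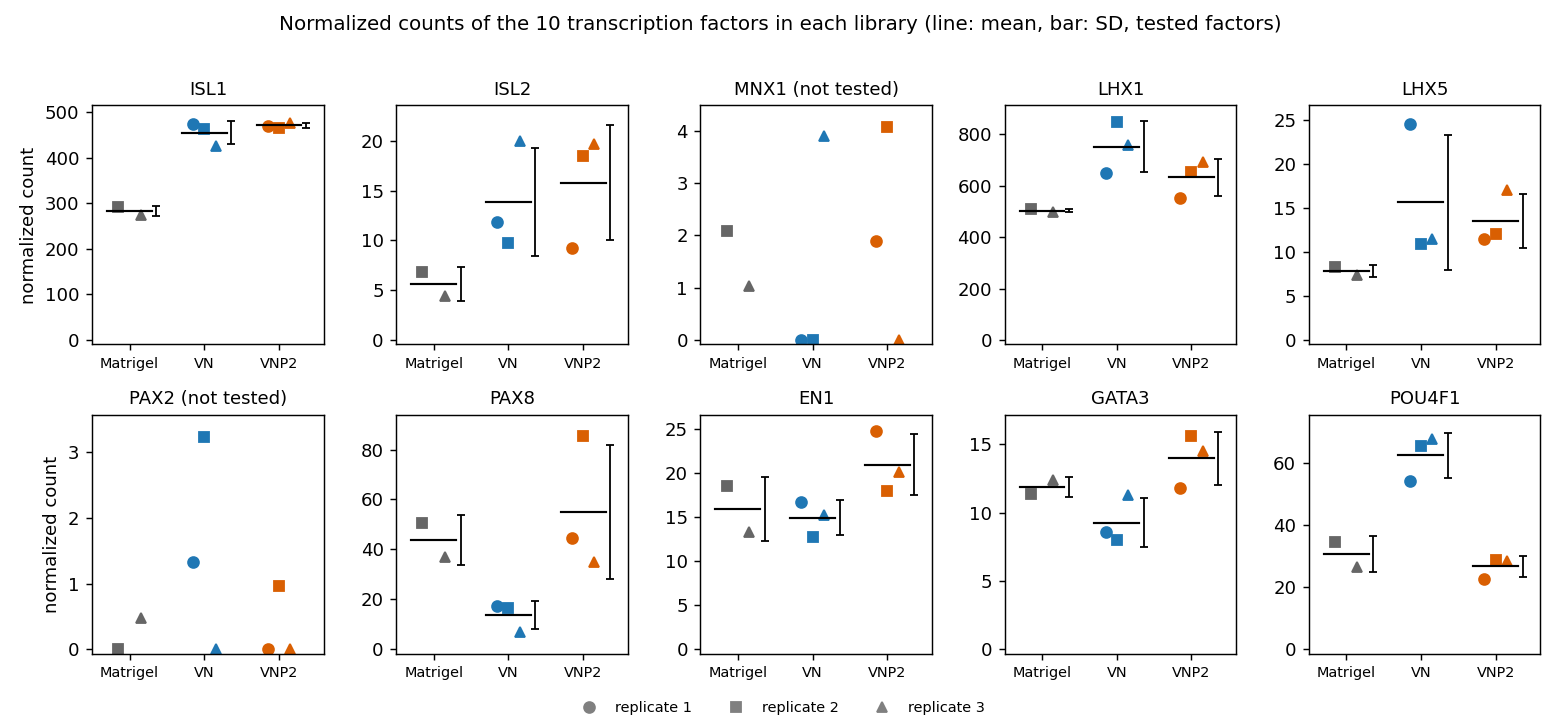
Normalized counts of the 10 factors in each library on linear axes, with the replicate number given by the symbol and the mean and SD (2 Matrigel, 3 VN and 3 VNP2 libraries) drawn for the 8 tested factors. ISL1 is lowest in both Matrigel libraries, POU4F1 is highest in the 3 VN libraries, and MNX1 and PAX2 stay below 5 in every library.

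The motor neuron factors were led by ISL1 (ENSG00000016082, chr5:51383391-51394738, plus strand), a LIM homeodomain factor needed for motor neuron generation and for cholinergic fate. Its normalized counts were 291.1 and 275.5 on Matrigel, 475.3, 462.6 and 426.7 in the VN libraries, and 470.4, 465.6 and 477.2 in the VNP2 libraries. Every VN and VNP2 library lay above both Matrigel libraries, while VN and VNP2 overlapped. The means were 283.3 ± 11.02 (SD, n = 2) on Matrigel, 454.9 ± 25.2 (SD, n = 3) on VN and 471.0 ± 5.82 (SD, n = 3) on VNP2. ISL1 was 1.61-fold higher on VN than on Matrigel (log2 fold change 0.68, SE 0.08, edgeR adjusted p = 0.000339). On VNP2 it was 1.66-fold higher than on Matrigel (log2 fold change 0.73, SE 0.08, edgeR adjusted p = 0.000148). Between VNP2 and VN the log2 fold change of ISL1 was 0.05, with a 95% interval from -0.10 to 0.20 (edgeR adjusted p = 0.746). Both calls of ISL1 held under every alternative run, with log2 fold changes of 0.64 to 0.73 on VN and 0.69 to 0.78 on VNP2 when single libraries were left out.

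ISL2 (ENSG00000159556, chr15:76336724-76342476, plus strand), the close relative of ISL1 that acts in motor neurons after they leave the cell cycle, was much scarcer, with 101 estimated counts over the 8 libraries. Its normalized counts were 6.84 and 4.42 on Matrigel, 11.8, 9.69 and 19.9 in the VN libraries, and 9.20, 18.5 and 19.7 in the VNP2 libraries. Both Matrigel libraries lay below all others. The log2 fold change of ISL2 was 1.25 (SE 0.55, edgeR adjusted p = 0.153) on VN and 1.45 (SE 0.53, edgeR adjusted p = 0.0953) on VNP2, and neither passed the test. At this depth a difference of that size could not be told from the spread. The TPM of ISL1 was 15.9 to 46.3 times that of ISL2 in the same library. MNX1 (HB9; ENSG00000130675, chr7:156994051-157010651, minus strand), which consolidates motor neuron identity, was close to the detection limit. It had estimated counts of 2 and 1 on Matrigel, 0, 0 and 4 in the VN libraries, and 2, 4 and 0 in the VNP2 libraries, which is 13 in all and too few to test. LHX3, which joins ISL1 in the complex that specifies spinal motor neurons, had 5 estimated counts in all.

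LHX1 (LIM1; ENSG00000273706, chr17:36936785-36944612, plus strand), used by several interneuron classes and by lateral motor neurons, was the most abundant member when all its transcripts were summed. Its normalized counts were 507.6 and 498.2 on Matrigel, 649.5, 847.1 and 759.2 in the VN libraries, and 553.6, 654.9 and 691.8 in the VNP2 libraries. The Matrigel libraries were again lowest, and VN and VNP2 overlapped. In estimated counts VN (720, 785 and 694) lay above VNP2 (618, 663 and 645), so the overlap came in with the length offset. The average effective length of LHX1 was 2250 bases in VN replicate 1, and 1888 and 1891 bases in VN replicates 2 and 3. The means of the normalized counts were 502.9 ± 6.67 (SD, n = 2) on Matrigel, 751.9 ± 99.0 (SD, n = 3) on VN and 633.4 ± 71.6 (SD, n = 3) on VNP2. LHX1 was 1.49-fold higher on VN than on Matrigel (log2 fold change 0.58, SE 0.12, edgeR adjusted p = 0.0102). That call did not hold without Matrigel replicate 2 (edgeR adjusted p = 0.0671) or without Matrigel replicate 3 (edgeR adjusted p = 0.0793), at log2 fold changes of 0.59 and 0.56. On VNP2 the log2 fold change was 0.33 (SE 0.12, edgeR adjusted p = 0.0958), which did not pass. It passed without VN replicate 1 (log2 fold change 0.33, edgeR adjusted p = 0.0454), without VNP2 replicate 1 (0.42, edgeR adjusted p = 0.0432), without a filter on low counts (0.33, edgeR adjusted p = 0.0407) and without length offsets (0.30, edgeR adjusted p = 0.0121), so the call for LHX1 on VNP2 depended on the setting. Between VNP2 and VN the log2 fold change was -0.25, with a 95% interval from -0.48 to -0.01 (edgeR adjusted p = 0.228). The coding transcript LHX1-201 took 84.5 to 90.8% of the counts of LHX1 in each library, but a smaller part of its TPM. LHX1-201 had 9.81 of 18.6 TPM in VN replicate 2 and 9.32 of 13.9 TPM in VN replicate 1. The transcript LHX1-203, which is not annotated as coding, had 2.92 to 6.83 TPM. The ratio of LHX1 to ISL1 in TPM was 1.75 to 1.81 on Matrigel, 1.37 to 1.84 on VN and 1.18 to 1.45 on VNP2.

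LHX1-DT, a noncoding gene transcribed away from LHX1, was the only neighbouring noncoding gene of the members that could be tested of the 8 listed, and its means were 145.1 ± 3.45 (SD, n = 2) for Matrigel, 170.4 ± 12.5 (SD, n = 3) for VN and 185.1 ± 26.5 (SD, n = 3) for VNP2. Its log2 fold change was 0.23 on VN (edgeR adjusted p = 0.311) and 0.35 on VNP2 (edgeR adjusted p = 0.132), and its counts reached 0.747 of those in the deposited table. LHX5 (ENSG00000089116, chr12:113462034-113472280, minus strand), the paralog of LHX1, had normalized counts of 8.34 and 7.36 on Matrigel, 24.6, 10.97 and 11.6 in the VN libraries, and 11.6, 12.1 and 17.1 in the VNP2 libraries. Both Matrigel libraries lay below the others, and VN replicate 1 was highest. The estimated counts behind that high value were 13 in VN replicate 1, against 12 in each of VN replicates 2 and 3. The average effective length of LHX5 was 1221 bases in VN replicate 1 and 2441 to 2694 bases in the other libraries, and the shorter length raised its normalized value. No comparison of LHX5 passed the test, with log2 fold changes of 0.89 on VN (edgeR adjusted p = 0.241) and 0.78 on VNP2 (edgeR adjusted p = 0.303). LHX1 exceeded LHX5 by 30.0 to 87.7 times in TPM.

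Of the factors of inhibitory interneurons, PAX2 (ENSG00000075891, chr10:100735603-100829941, plus strand), a paired box factor needed for their GABAergic character, was practically undetected. Its estimated counts were 0 and 1 on Matrigel, 1, 1 and 0 in the VN libraries, and 0, 2 and 0 in the VNP2 libraries. The total of 5 allowed no test. PAX8 (ENSG00000125618, chr2:113215997-113278950, minus strand), the related factor that is co-expressed with PAX2 in the spinal cord, was detected in every library. Its normalized counts were 50.8 and 36.8 on Matrigel, 17.5, 16.7 and 7.09 in the VN libraries, and 44.4, 85.5 and 35.1 in the VNP2 libraries. The VN libraries lay below all others, and Matrigel and VNP2 overlapped. The means were 43.8 ± 9.86 (SD, n = 2) on Matrigel, 13.7 ± 5.78 (SD, n = 3) on VN and 55.0 ± 26.8 (SD, n = 3) on VNP2. On VN the log2 fold change of PAX8 against Matrigel was -1.70 (SE 0.48, 95% interval -2.77 to -0.63, edgeR adjusted p = 0.0388). On VNP2 it was 0.32 against Matrigel (edgeR adjusted p = 0.707) and 2.02 against VN (SE 0.42, 95% interval 1.09 to 2.94, edgeR adjusted p = 0.0198).

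Much of the distance of PAX8 between VN and Matrigel came in with the offset for transcript length. The estimated counts of PAX8 were 28 and 27 on Matrigel, 21, 23 and 14 in the VN libraries, and 42, 63 and 38 in the VNP2 libraries. VN was thus still lowest, but by less than in the normalized counts. The average effective length of PAX8 was 1151 and 1528 bases on Matrigel, 2462, 2838 and 4125 bases in the VN libraries, and 1928, 1523 and 2209 bases in the VNP2 libraries, so the longest lengths were those of the 3 VN libraries. These lengths follow from which of its transcripts received the few reads: 10 of 13 annotated PAX8 transcripts had counts, and the coding transcript PAX8-205 received 0.0% of them in 4 libraries and 78.4 to 86.8% in the other 4. In VN replicate 3 all counts were assigned to PAX8-203. Without the length offsets, the log2 fold change on VN against Matrigel was -0.53 (edgeR adjusted p = 0.273) and the call was lost, while VNP2 against VN was 1.28 (edgeR adjusted p = 0.0171) and was kept. The call on VN was also lost without Matrigel replicate 2 (edgeR adjusted p = 0.21), Matrigel replicate 3 (0.104), VN replicate 2 (0.0602), VN replicate 3 (0.102) or VNP2 replicate 1 (0.0504). The call of VNP2 against VN was lost without VN replicate 3 (edgeR adjusted p = 0.0677) or VNP2 replicate 2 (edgeR adjusted p = 0.0619). The antisense gene PAX8-AS1 had 10 estimated counts in all.

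**Figure D4:**
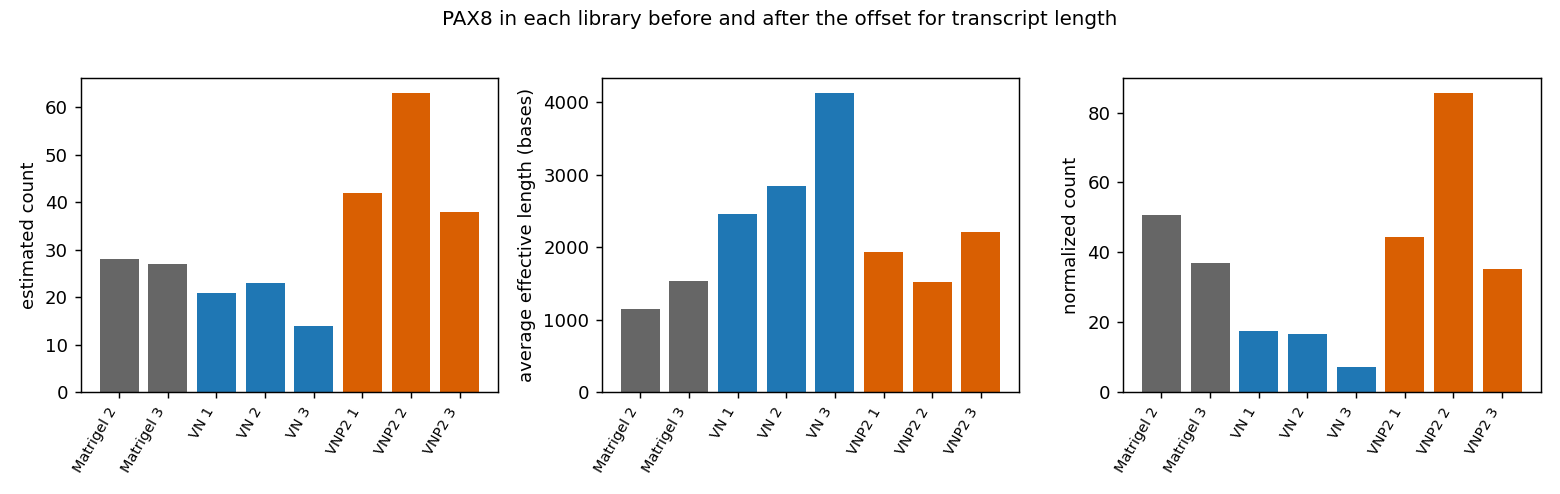
PAX8 in each library, as estimated counts (left), average effective transcript length in bases (middle) and normalized counts after the offset for that length (right), with bars coloured by substrate. The 3 VN libraries have the lowest estimated counts, 14 to 23, and the longest lengths, 2462 to 4125 bases, which together give normalized counts of 7.09 to 17.5.

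EN1 (ENSG00000163064, chr2:118842171-118847678, minus strand), the homeodomain factor of V1 interneurons, had normalized counts of 18.5 and 13.4 on Matrigel, 16.8, 12.8 and 15.2 in the VN libraries, and 24.8, 18.1 and 20.2 in the VNP2 libraries. The VNP2 libraries lay above the VN libraries, and the other pairs overlapped. Its log2 fold change was -0.10 on VN, 0.39 on VNP2 and 0.49 between VNP2 and VN (edgeR adjusted p = 0.887, 0.49 and 0.404). GATA3 (ENSG00000107485, chr10:8045378-8075203, plus strand), the zinc finger factor of V2b interneurons, had normalized counts of 11.4 and 12.4 on Matrigel, 8.57, 7.97 and 11.3 in the VN libraries, and 11.8, 15.6 and 14.5 in the VNP2 libraries. VN lay lowest, by a margin of less than 1 normalized count at its nearest point to Matrigel. Its log2 fold change was -0.34 on VN, 0.23 on VNP2 and 0.57 between VNP2 and VN (edgeR adjusted p = 0.617, 0.742 and 0.38). For VNP2 against VN the 95% interval was -0.17 to 1.14 for EN1 and -0.16 to 1.31 for GATA3, so both intervals reach past a 2-fold difference.

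POU4F1 (BRN3A; ENSG00000152192, chr13:78598362-78603560, minus strand), a POU domain factor of dorsal interneurons and sensory neurons, was the member with the clearest difference between VN and VNP2. Its normalized counts were 34.8 and 26.5 on Matrigel, 54.4, 65.6 and 67.8 in the VN libraries, and 22.8, 28.98 and 28.5 in the VNP2 libraries. All 3 VN libraries lay above every other library, and Matrigel and VNP2 overlapped. The means were 30.6 ± 5.83 (SD, n = 2) on Matrigel, 62.6 ± 7.20 (SD, n = 3) on VN and 26.8 ± 3.44 (SD, n = 3) on VNP2. POU4F1 was 2.04-fold higher on VN than on Matrigel (log2 fold change 1.03, SE 0.24, edgeR adjusted p = 0.0162). Between VNP2 and VN its log2 fold change was -1.22 (SE 0.21, 95% interval -1.69 to -0.75, edgeR adjusted p = 0.00782). On VNP2 against Matrigel the log2 fold change was -0.19, with a 95% interval from -0.75 to 0.36 (edgeR adjusted p = 0.672). The call on VN was lost without Matrigel replicate 3 (log2 fold change 0.84, edgeR adjusted p = 0.133) and without VN replicate 3 (0.96, edgeR adjusted p = 0.0521), whereas the difference between VNP2 and VN stayed called with each library left out, at log2 fold changes of -1.31 to -1.12. POU4F1 has a single annotated transcript, and its average effective length varied by a factor of 1.03 between libraries. Of its relatives, POU4F2 had means of 3.10, 5.67 and 10.5 normalized counts on Matrigel, VN and VNP2 and did not pass the test in any pair, and POU4F3 was too low to test.

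Markers of sensory neurons, where POU4F1 also acts, were measured beside it. Of the 8 listed, 5 were tested, and on VN against Matrigel, where POU4F1 rose, edgeR called 0 of them, with 2 at an unadjusted p under 0.05 and 1 called by DESeq2. Their summed TPM was 10.1 to 11.1 on Matrigel, 11.9 to 13.7 on VN and 14.1 to 14.7 on VNP2. P2RX3, an ATP-gated channel, was higher on VNP2 than on Matrigel (log2 fold change 0.38), while RUNX3, TLX2 and SCN10A had 7, 7 and 1 estimated counts in all. DESeq2 called 1 sensory marker on VNP2 against Matrigel and edgeR 2, or 0 to 2 with single libraries left out, and without VN replicate 1 edgeR called 1 higher on VNP2 than on VN in place of 0. Among the 7 nephric markers, kept because PAX2, PAX8 and LHX1 also act in the kidney, CDH16 was at 0 and the summed TPM was 2.62 to 4, with OSR1 higher on VNP2 than on Matrigel and WT1 lower on VNP2 than on VN as the called genes. DESeq2 called 0 nephric markers in either pair, each had 1 at an unadjusted p under 0.05, and with single libraries left out edgeR called 0 to 1. Of the 7 otic and placode markers FOXI1 was at 0, while DLX5 and DLX6, which forebrain interneurons also use, were higher on VN and VNP2 than on Matrigel. Of the 8 midbrain-hindbrain markers, EN2, the paralog of EN1, had 26 estimated counts, and OTX2 was higher on both substrates than on Matrigel (log2 fold changes 0.19 and 0.20). Among surface ectoderm and amnion markers, kept for GATA3, HAND1 was at 0 and TFAP2A was higher and KRT19 lower on VNP2 than on Matrigel. With any single library left out no gene of that list was called lower there and 0 to 1 higher, and DESeq2 called 1 of the 6. Of the 3 tested cardiac mesoderm markers, kept for ISL1, edgeR and DESeq2 called 0 in any pair, with 0, 2 and 1 at an unadjusted p under 0.05 on VN against Matrigel, VNP2 against Matrigel and VNP2 against VN, and TBX5 was at 0. The part of any of these cells in the members' levels was not tested.

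Of the 7 listed genes of pluripotent cells, POU5F1 and TDGF1 were, like POU4F1, called lower on VNP2 than on VN, and none was called higher. Against Matrigel their calls differed from those of POU4F1. POU5F1 had means of 124.6 ± 3.11 (SD, n = 2) for Matrigel, 153.7 ± 17.7 (SD, n = 3) for VN and 51.9 ± 13.4 (SD, n = 3) for VNP2, and TDGF1 had 44.6 ± 6.32, 86.2 ± 14.6 and 16.1 ± 8.07. Both were lower on VNP2 than on VN (log2 fold changes -1.56 and -2.44, edgeR adjusted p = 0.000774 and 0.00121). Both were also called lower on VNP2 than on Matrigel, and neither was called on VN against Matrigel. POU4F1 was called higher on VN than on Matrigel, and it was not called on VNP2 against Matrigel (edgeR adjusted p = 0.672). NANOG, which defines that state with POU5F1, had 123 estimated counts in all, the summed TPM of the 7 pluripotency markers was 92.8 to 97.9 on Matrigel, 83.6 to 85.5 for VN and 76.7 to 80.1 for VNP2, and LIN28A was lower on VN and VNP2 than on Matrigel. DPPA4, another gene of that list, was higher on VNP2 than on Matrigel (log2 fold change 0.18, edgeR adjusted p = 0.0403), so 1 of the 7 was higher and 3 were lower there. The part of undifferentiated cells in the POU4F1 difference was not tested.

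The other factors of the same neuron classes, 42 genes listed beside the members, were measured next. Their lists were chosen with earlier results of these data known, and their counts are set beside the same shares of all genes. Of 10 tested motor neuron factors (11 listed), 4 were higher and 1 lower on VN than on Matrigel, where 5.81% of all genes were higher and 9.41% lower, with a list median of 0.39 on the log2 scale. On VNP2 against Matrigel 4 were higher and 1 lower, beside 7.45% and 9.13% of all genes, with a median of 0.50. ONECUT1, ONECUT2 and POU3F1 were higher on both. ONECUT2, of a family that acts upstream of ISL1 in spinal motor neurons, had means of 1189 ± 15.5 (SD, n = 2) on Matrigel, 1821 ± 108 (SD, n = 3) on VN and 1797 ± 38.8 (SD, n = 3) on VNP2. POU3F1 (OCT6), used by motor neurons and other neurons, rose from 359.7 to 522.1 on VN and 592.1 on VNP2 (log2 fold changes 0.54 and 0.72). FOXP1, of limb motor neurons, was higher on VN (log2 fold change 0.29). RUNX1, also a blood factor, was lower on VN and VNP2 than on Matrigel (-0.62 and -0.90). On VNP2 against VN, 1 of the 10 was higher and none lower, beside 3.07% and 2.1% of all genes. Without VN replicate 1 it was 1 and 1, while calls over all genes rose from 942 to 1979.

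Of 15 listed ventral interneuron factors only 7 could be tested, and EVX1, EVX2, SP8, VSX1, SOX14, TAL1 and BHLHE22 were among those too low. Of the 7, 3 were higher on VN (SIM1, FOXP2 and SHOX2) and 3 on VNP2 (SIM1 and SHOX2 among them) than on Matrigel, and none was lower. Of all genes, 5.81% and 7.45% were higher there and 9.41% and 9.13% lower. SIM1, of V3 interneurons, had means of 246.8 ± 17.9 (SD, n = 2) on Matrigel, 377.8 ± 38.4 (SD, n = 3) on VN and 495.8 ± 54.8 (SD, n = 3) on VNP2. SHOX2, of rhythm-generating excitatory interneurons, had 41.4 ± 6.65, 107.6 ± 17.0 and 95.7 ± 11.1 in the same order. GATA2, which acts upstream of GATA3 in V2b cells, had means of 11.96, 12.7 and 25.02 and was not called. On VNP2 against VN, 1 of the 7 was higher, beside 3.07% of all genes. Without VN replicate 1 that gene was no longer called, and 4 of the list were higher on VNP2 than on Matrigel. Calls over all genes then rose from 942 to 1979 and from 3017 to 3653.

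The dorsal interneuron factors, the company of POU4F1, had 8 tested of 16, and LBX1, PTF1A, BARHL1, BARHL2, TLX1, FOXD3 and DMRT3 were among those too low to test. TLX3, of dorsal glutamatergic interneurons, was the only called gene on VN (log2 fold change 0.63), with means of 105.1 ± 17.3 (SD, n = 2) on Matrigel, 162.9 ± 12.9 (SD, n = 3) on VN and 172.5 ± 17.4 (SD, n = 3) on VNP2. TLX3, LHX9 and GBX1 were higher on VNP2 than on Matrigel (log2 fold changes 0.72, 1.85 and 1.26). Of all genes, 5.81% were higher on VN and 7.45% on VNP2 than on Matrigel. Between VNP2 and VN, GBX1 was higher and WT1 lower on VNP2 (1.25 and -2.07), beside 3.07% and 2.1% of all genes, whereas DESeq2 called 0 of the 8 there. The counts of WT1 reached 0.716 of those in the deposited table. LHX2, also a forebrain gene, was the most abundant of the list at 60.1 TPM and was not called in any pair.

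The 9 genes listed as cofactors of LIM homeodomain factors such as ISL1 and LHX1 were all detected, LIM-only (LMO) proteins among them. Of the 9 tested, 3 were higher on VN than on Matrigel (LMO1, LMO3 and SSBP3) and 4 on VNP2 (the same 3 and SSBP2), and none was lower. The shares of all genes higher there were 5.81% and 7.45%. Between VNP2 and VN none was called in edgeR, where 5 of the 9 had an unadjusted p under 0.05 and DESeq2 called 1. LDB1, the adaptor that joins LIM homeodomain factors into complexes, had means of 3628 ± 84.0 (SD, n = 2) for Matrigel, 3676 ± 94.8 (SD, n = 3) for VN and 3824 ± 66.9 (SD, n = 3) for VNP2, which did not pass the test. LMO1, a LIM-only protein that competes for LDB1, had 59.9 ± 1.87, 97.04 ± 9.35 and 138.4 ± 15.7, and LMO3 had 993.9 ± 44.8, 1422 ± 80.2 and 1400 ± 90.1. Without VN replicate 1, 2 of the 9 were higher on VNP2 than on VN, while calls over all genes rose from 942 to 1979.

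Proneural factors, which act before the members in newly forming neurons, were higher for 4 of 9 tested genes on VN (INSM1, EBF3 and NEUROG1 among them) and for 6 on VNP2 against Matrigel, and none was lower, beside 5.81% and 7.45% of all genes higher. DESeq2 called 3 and 4 of them. NEUROG1, which precedes POU4F1 in dorsal interneurons and sensory neurons, had means of 28.97 ± 3.40 (SD, n = 2) on Matrigel, 55.4 ± 9.38 (SD, n = 3) on VN and 30.9 ± 4.37 (SD, n = 3) on VNP2. It was higher on VN than on Matrigel (log2 fold change 0.93, edgeR adjusted p = 0.0308), and its difference between VNP2 and VN was -0.84 (edgeR adjusted p = 0.0551). EBF2, which follows proneural factors, was higher on VNP2 than on Matrigel and VN (1.10 and 0.84). On VNP2 against VN 1 of the 9 was higher and 1 lower, beside 3.07% and 2.1% of all genes. It was 1 and 2 without VN replicate 1, while calls over all genes rose from 942 to 1979.

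Transmitter genes, which the members help to select, showed 3 of 10 tested genes higher on VN (GAD2 and SLC18A3 among them) and 4 on VNP2 (CHAT, SLC18A3, GAD2 and SLC32A1) than on Matrigel, and none lower. The shares of all genes higher there were 5.81% and 7.45%. SLC18A3, the vesicular acetylcholine transporter of motor neurons and other cholinergic neurons, had means of 464.2 ± 18.2 (SD, n = 2) on Matrigel, 556.9 ± 38.1 (SD, n = 3) on VN and 890.4 ± 40.7 (SD, n = 3) on VNP2. SLC18A3 was higher on VNP2 than on VN (log2 fold change 0.68, edgeR adjusted p = 0.000337), while the ISL1 value in that comparison was 0.05. CHAT, the enzyme that makes acetylcholine, had 33.0 ± 5.42, 50.04 ± 9.33 and 65.4 ± 10.8. Of the inhibitory genes, GAD2 had 155.2 ± 9.99, 264.4 ± 20.6 and 302.5 ± 54.2, and SLC6A5, the glycine transporter of spinal inhibitory neurons, had 4 estimated counts in all.

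Many general neuronal genes were higher on both substrates. Of 14 tested, 8 were higher on VN and 10 on VNP2 than on Matrigel and none was lower, beside 5.81% and 7.45% of all genes higher and 9.41% and 9.13% lower. Their summed TPM was 1120 to 1160 on Matrigel, 1290 to 1330 on VN and 1410 to 1430 on VNP2. DCX, a microtubule protein of young neurons, had means of 8535 ± 210 (SD, n = 2) for Matrigel, 12280 ± 325 (SD, n = 3) for VN and 14070 ± 659 (SD, n = 3) for VNP2, which are log2 fold changes of 0.53 and 0.72. STMN2 gave 0.51 and 0.72, beside 0.68 and 0.73 for ISL1. TUBB3, the neuronal tubulin, gave -0.07 and -0.01 and was not called. Between VNP2 and VN, 5 of the 14 were higher and MAP2 was lower, beside 3.07% and 2.1% of all genes. Without VN replicate 1, 8 were higher and 1 lower on VN than on Matrigel, and 6 higher and 1 lower on VNP2 than on VN. Calls over all genes then rose from 2770 to 3911 and from 942 to 1979. Of the 5 tested OPC markers, 2 were higher on VN (OLIG1 and OLIG2) and all 5 on VNP2 than on Matrigel, at log2 fold changes of 0.23 to 0.66 on VNP2. Whether the higher ISL1 on VN and VNP2 and the higher LHX1 on VN follow the amount of neuronal RNA was not tested.

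**Figure D5:**
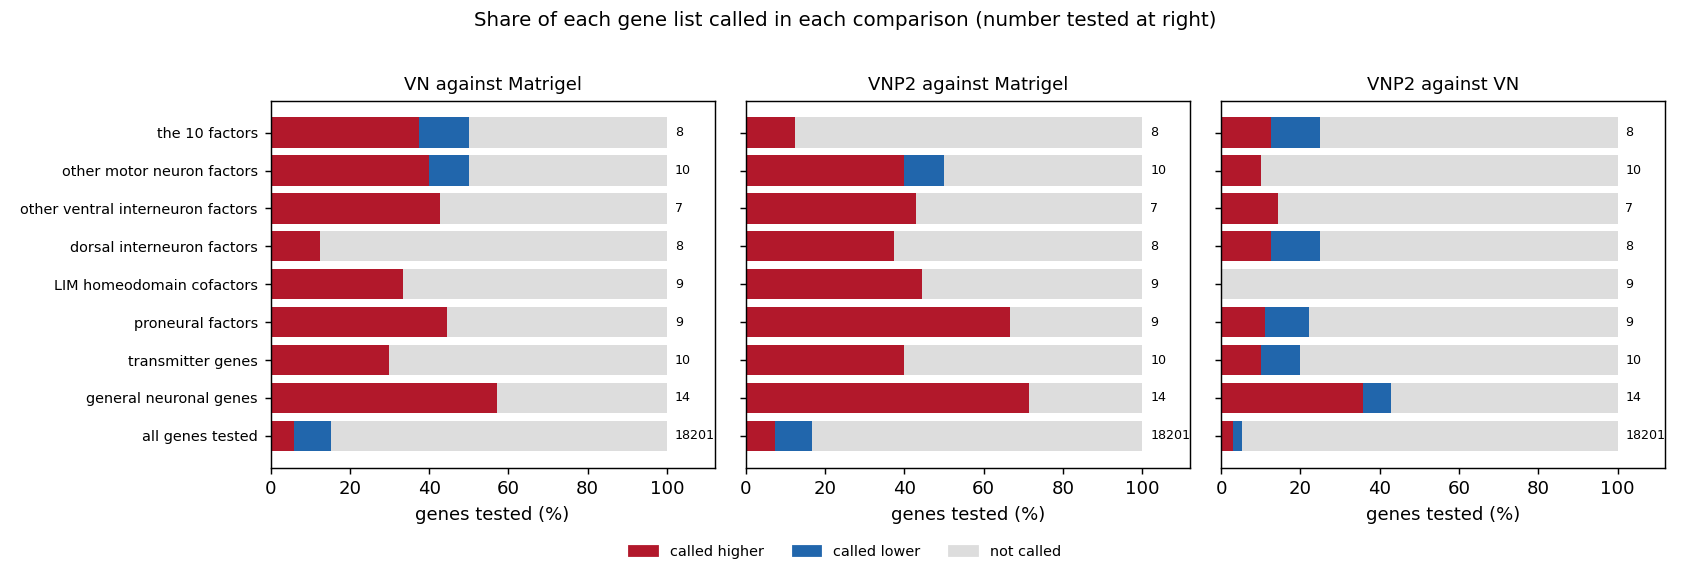
Share of the tested genes of each list called higher (red), lower (blue) or not called (grey) in each pair of substrates, with the number tested at the right and all 18201 genes as the last bar. On VNP2 against Matrigel, 10 of 14 general neuronal genes and 6 of 9 proneural factors are called higher, and the 10 factors have 1 of 8 there.

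For each member called across the substrates, the 2 genes with the most similar profile were sought among genes whose normalized counts averaged 100 or more, by Pearson correlation of log2 normalized counts over the 8 libraries. The points share the substrate groups, so these values are a description. ISL1 was most like ABAT (r = 0.991) and COL6A3 (r = 0.986) among 12995 genes. LHX1 was most like GTF2IP1 (r = 0.988) and LUM (r = 0.986). PAX8 was most like NECTIN3 (r = 0.966) and RAB14 (r = 0.96), and POU4F1 was most like TTC3 (r = 0.995) and PDE5A (r = 0.992), among 12996 genes each for PAX8 and POU4F1. In the order Matrigel, VN and VNP2, TTC3 had means of 31600, 37510 and 31100 normalized counts, and ABAT had 9625, 11740 and 12180, so the scale of these changes was smaller than that of POU4F1 and ISL1.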

How the data were processed

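The authors trimmed adapters with Trim Galore and ran Salmon on the GENCODE 32 transcripts (GRCh38.p13). The deposited files hold, per transcript, estimated counts that are neither whole nor normalized, TPM made by the authors with Salmon, and effective lengths. Normalized counts per gene, a signal the authors deposited as a table after tximport and DESeq2 1.27.12, served for checks and for limma. It lists 23350 genes, 9 of the 10 members among them (all but PAX2), and the normalized counts computed here had a ratio of 0.999 to 1 to it for each of the 9.

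Estimated counts were summed per gene through the GENCODE 29 identifiers given here, which matched 205225 of 226608 transcripts and 98.8 to 98.9% of the counts, rounded, and fitted in edgeR 4.0.16 (R 4.3.3; offsets from average transcript lengths, TMM, filterByExpr with a minimum count of 10 and total of 15, quasi-likelihood F-test, no block, Benjamini-Hochberg within each comparison). Gene coordinates are those of GENCODE 29 on GRCh38, 1-based. Normalized counts are scaled to the mean library. A count of 10 carries a sampling error of about 32%, so members under 20 counts per library are imprecise. The SE and 95% intervals come from the F-statistic. The scripts were tested on simulated data.

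The members and lists were chosen with earlier results of these data known. Named are all members, genes of the lists that were called or define a list, and the 2 genes most like each called member. The kit keeps strand, but the Salmon library setting is not given in the sources used here. Alternatives were RLE, no length offsets, no filter, a floor of 50 counts per library, only the libraries of the pair, DESeq2 1.42.0, limma 3.58.1 on log2 of the deposited values plus 1 or 5 (mean of at least 10), a replicate block, and each library left out. The counts of list genes called without single libraries and by DESeq2 were added after the data were seen. Some genes of the lists were counted but are not reported here by name. Promoter windows came from RefSeq, and figures from matplotlib 3.10.9.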

Additional observations from a re-analysis of the deposited data

How the results depend on the processing

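Of the member fold changes under each alternative, 355 kept direction and side of the threshold, 12 lost a call, 5 gained one and 7 turned direction, all 7 of them not called. On VNP2 against Matrigel, 2 members (ISL1 and LHX1) were called without length offsets, without a filter and with the replicate block. With at least 50 counts in every library, which leaves ISL1 and LHX1 alone to test, 2 members were called on VN against Matrigel, 0 on VNP2 against VN, and 2 across the substrates. With single libraries left out, members called ranged from 1 to 4 (VN against Matrigel, lowest without Matrigel replicate 3), 1 to 2 (VNP2 against Matrigel), 1 to 2 (VNP2 against VN) and 2 to 4 (across), and genes called from 1184 to 3911, 1611 to 3653, 544 to 1979 and 1881 to 4981. The highest of these gene counts were reached without VN replicate 1, and a left-out Matrigel library leaves 1, assumed to vary like the other groups. The direction turned for LHX5 on VNP2 against VN without length offsets (0.29) and, with single libraries left out, for EN1 on VN (-0.31 to 0.16, among them 0.00358), POU4F1 on VNP2 against Matrigel (-0.376 to 0.0157), LHX5 (-0.31 to 0.27) and ISL2 (-0.00627 to 0.55) on VNP2 against VN, and PAX8 on VNP2 against Matrigel (-0.13 to 0.57). The cause was not tested. Replicate numbers did not pair the libraries, with correlations of same-numbered deviations from -0.122 to 0.0607, and the replicate block gave 3405, 3155, 1167 and 3990 called genes in place of 2770, 3017, 942 and 3517. With that block LHX1 on VNP2 against Matrigel had a log2 fold change of 0.425 (edgeR adjusted p = 0.00717). With single libraries left out, the called genes that were higher than on Matrigel ranged, for VN and for VNP2, from 2 to 4 and 2 to 4 (motor neuron factors), 1 to 3 and 2 to 4 (ventral), 0 to 2 and 0 to 3 (dorsal), 1 to 3 and 3 to 4 (cofactors), 2 to 4 and 3 to 6 (proneural), 0 to 3 and 2 to 4 (transmitter) and 5 to 8 and 9 to 10 (general neuronal). Depth limits ISL2, LHX5, EN1 and GATA3, which had few counts per library, and leaves MNX1 and PAX2 untested.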
